A study of Rattus norvegicus with 15 samples.

Results

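The water channels Aqp1, Aqp2, Aqp3, Aqp4 and Aqp7 and the vasopressin receptors Avpr1a and Avpr2 were followed in rat kidney, as every probe set with 1 of these 7 gene symbols in the array annotation. The 7 are among 10969 genes named on the arrays and gave 11 of 26379 probe sets: 10 on array design A, 0 on design B and 1 on design C. Aqp2 had 2 probe sets on A, Avpr2 had 3, and Aqp4 had 1 on A and 1 on C. The other genes had 1 each, on A.

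Kidneys of 5-week-old rats had been profiled from total RNA on 15 single-channel oligonucleotide arrays, 5 per design, numbered 1 to 5. On all designs kidneys 1 to 3 came from Dahl S rats (n = 3), the Dahl salt-sensitive strain, in which a high-salt diet raises blood pressure. On B and C kidneys 4 and 5 came from a congenic strain (n = 2), which carries a donor segment of chromosome 10 on the Dahl S background. Neither the donor strain, the extent of the segment, the sex of the rats nor their diet is given in the sources. On A, kidneys 4 and 5 are described as Dahl S, against the other designs, so their strain is unsettled. Their values are given singly and entered no test. None of the 7 genes lies on chromosome 10. Aqp7 and Aqp3 are direct neighbours on chromosome 5, with 0 protein-coding genes between them, and Aqp2 lies beside Aqp5 on chromosome 7 (gene order of rat assembly GRCr8). Nothing in the labels ties each kidney to an animal of its own. The p-values therefore reflect the spread among these samples alone, and that spread may be technical.

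Aquaporins are membrane channels for water, and some, such as Aqp3 and Aqp7, also pass glycerol. In the kidney, Aqp1 carries water out of the proximal tubule and the thin descending limb. In the principal cells of the collecting duct, the pituitary hormone vasopressin binds the receptor Avpr2, which acts through a stimulatory G protein, adenylyl cyclase and protein kinase A. Aqp2 then moves to the apical membrane, and water leaves the cell on the other side through Aqp3 and Aqp4. Avpr1a, the other vasopressin receptor measured, signals through calcium and is best known for constricting blood vessels.

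The deposited values are signal intensities on a linear scale, already brought to a common mean. The median signal per array was between 294.5 and 334.3 on A and between 491.3 and 524.4 on C. Probe sets bind their targets with different strength, so the signal of one probe set does not rank its gene against another. A floor was set at the 25th percentile of a design's values, 85.1 on A and 153.6 on C. A filter kept probe sets whose mean over 5 kidneys was at least the design's median value, 319.5 on A and 510.3 on C. Probe sets that passed it are called tested, though on A no test was run. Of the 10 member probe sets of A, 8 passed the filter, and those of Aqp4 and Avpr1a did not. The Aqp4 probe set of C passed. Some nephron markers were above the filter on A, among them the proximal tubule genes Slc34a1 and Lrp2, the thick ascending limb gene Umod and the principal cell gene Hsd11b2. Others were below it, among them Pvalb of the distal convoluted tubule, Scnn1b of the principal cell and Wt1 of the podocyte.

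Aqp1, the channel of the proximal tubule, was the steadiest gene of the family. Its signal (X67948_at) was 17936, 19841 and 18767 in Dahl S kidneys 1, 2 and 3, and 18347 and 16752 in kidneys 4 and 5. The Dahl S mean was 18848 ± 955 (SD, n = 3). Kidney 5 was the lowest of the 5, kidney 4 lay within the Dahl S range, and the highest kidney exceeded the lowest by 1.18-fold. The SD of the log2 signal over the Dahl S kidneys was 0.07, and 11.5% of the 4411 tested probe sets of A had a smaller one.

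Aqp7, a glycerol channel of the proximal straight tubule, also varied little. Its signal (AB000507_at) was 4269, 4514 and 5209 in Dahl S kidneys 1 to 3, and 4952 and 4639 in kidneys 4 and 5. Both of the last values lay inside the Dahl S range (mean 4664 ± 487, SD, n = 3). Kidney 3 was the highest and kidney 1 the lowest, 1.22-fold apart.

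Aqp2, Aqp3 and Avpr2 act in the collecting duct. On 5 of their 6 probe sets, kidneys 4 and 5 of array A were both above every Dahl S kidney. This position was found for 8.82% of all tested probe sets, and the smallest of the 5 margins was 0.00107 on the log2 scale. Aqp4, another channel of the principal cell, overlapped on A, below the filter. In whole kidney, more cells of a type and more RNA per cell cannot be told apart. Aqp2, the channel that vasopressin sends to the apical membrane, had a signal (D13906_at) of 6022, 5434 and 6094 in kidneys 1 to 3, and of 8110 and 6484 in kidneys 4 and 5. Kidney 4 stood 1.39-fold over the Dahl S mean of 5850 ± 362 (SD, n = 3) and kidney 5 stood 1.11-fold over it. The other Aqp2 probe set (D13906_g_at) gave 3100, 2387 and 2885 in kidneys 1 to 3, and 4373 and 3102 in kidneys 4 and 5. Here kidney 4 was again the highest, at 1.57 times the Dahl S mean of 2791 ± 366, while kidney 5 matched kidney 1 almost exactly.

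Aqp3, which lets water leave the principal cell on its basolateral side, had a signal (D17695_s_at) of 3731, 4071 and 4695 in kidneys 1 to 3. Kidney 4 measured 6082 and kidney 5 4788. Kidney 4 was the highest, at 1.46 times the Dahl S mean of 4166 ± 489 (SD, n = 3), and kidney 5 lay just over kidney 3.

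The upstream 250 bases of Aqp2 and Aqp3 are shown because signals of both channels were highest in kidney 4. They come from RefSeq (GRCr8), which held a promoter for 6 of the 7 genes. Aqp2 lies at chr7:132590036-132590285 on the + strand and Aqp3 at chr5:61040684-61040933 on the - strand, each read 5′ to 3′ on the strand of the gene. Capitals mark matches to TGACG, the core of the cAMP response element, and to AGATAA, which GATA factors recognise.
Aqp2: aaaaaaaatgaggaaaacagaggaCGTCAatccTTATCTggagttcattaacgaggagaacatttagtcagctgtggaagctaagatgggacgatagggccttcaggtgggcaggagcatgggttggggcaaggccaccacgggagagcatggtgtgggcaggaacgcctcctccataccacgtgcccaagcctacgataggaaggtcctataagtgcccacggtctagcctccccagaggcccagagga
Aqp3: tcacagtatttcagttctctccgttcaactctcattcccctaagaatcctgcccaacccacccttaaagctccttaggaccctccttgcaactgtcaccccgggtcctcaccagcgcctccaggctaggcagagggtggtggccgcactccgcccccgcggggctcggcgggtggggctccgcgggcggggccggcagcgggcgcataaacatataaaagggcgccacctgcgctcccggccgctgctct
Both strands were searched. The Aqp2 window held the core, as CGTCA, at −226 to −222 from the start and the GATA motif, as TTATCT, at −217 to −212. The Aqp3 window held neither. Of 33469 promoter windows of this length, 18.2% held TGACG and 10.3% held AGATAA. The full element TGACGTCA, which contains the core, occurred in 1.59% of them and in neither the Aqp2 nor the Aqp3 window. Signals of Aqp4 and of Avpr2 (Z11932cds_at and Z11932cds_g_at) were also highest in kidney 4, and their windows held neither motif. Among the remaining windows only that of Avpr1a held a match, TGACG at −240 to −236, and its signal was not highest in kidney 4. The matches therefore do not follow the kidney 4 signals. A match is a description of the letters, not of a bound site.

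Avpr2, the receptor that starts the response, had a signal (Z11932cds_at) of 2544, 2392.5 and 2804.5 in kidneys 1 to 3, and of 3198 and 2961 in kidneys 4 and 5. The second probe set of that name (Z11932cds_g_at) gave 1206, 995 and 1161, then 1307 and 1289. On both, kidneys 4 and 5 lay above all Dahl S kidneys, with kidney 4 at 1.24 and 1.17 times the Dahl S means of 2580 ± 208 and 1121 ± 111 (SD, n = 3) and kidney 5 at 1.15 times on each. The third probe set (X83264exon_at), near the filter, measured 270, 266 and 360 in kidneys 1 to 3, then 345 and 542. On it kidney 5 alone exceeded the Dahl S range, at 1.81 times the mean of 299 ± 53.2.

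**Figure D1:**
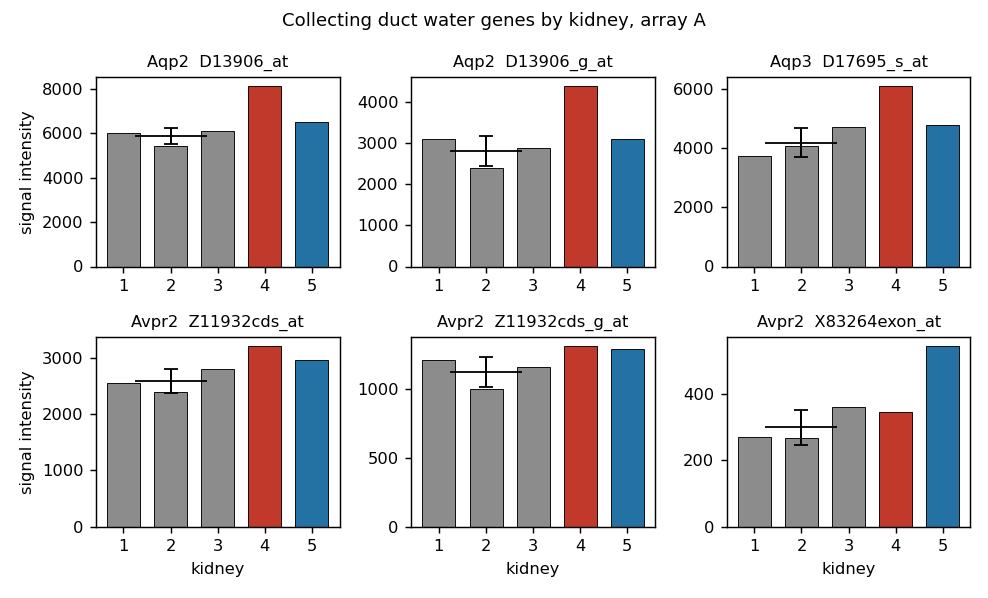
Signal intensity (linear axis from 0) of the Aqp2, Aqp3 and Avpr2 probe sets on array A in kidneys 1 to 5, with Dahl S kidneys grey, kidney 4 red and kidney 5 blue, both of unsettled strain. The black line and bar give the Dahl S mean and SD (n = 3). Kidney 4 is the highest on 5 probe sets, and kidney 5 on X83264exon_at.

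On the whole of array A, kidneys 4 and 5 were both above kidneys 1 to 3 for 389 of 4411 tested probe sets (8.82%), and both below for 447 (10.1%). Of the 8 tested member probe sets 5 were above and 0 below. These 5 come from 3 genes, and the paired probe sets of Aqp2 and of Avpr2 share a sequence record in their names, so they are not 5 separate observations. The margins were small: the lower of kidneys 4 and 5 exceeded the highest Dahl S kidney by 0.09 (D13906_at), 0.00107 (D13906_g_at), 0.03 (Aqp3), 0.08 (Z11932cds_at) and 0.10 (Z11932cds_g_at) on the log2 scale. With each array scaled to the same median there were again 5, with X83264exon_at in place of D13906_g_at, and the share over all tested probe sets rose to 13.1%. X83264exon_at passed the filter of 319.5 through kidneys 4 and 5, since its Dahl S mean was 299, so its count there supports nothing. Kidney 4 was the highest of the 5 on 5 of the 8 tested member probe sets and on 17.6% of all tested probe sets.

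**Figure D2:**
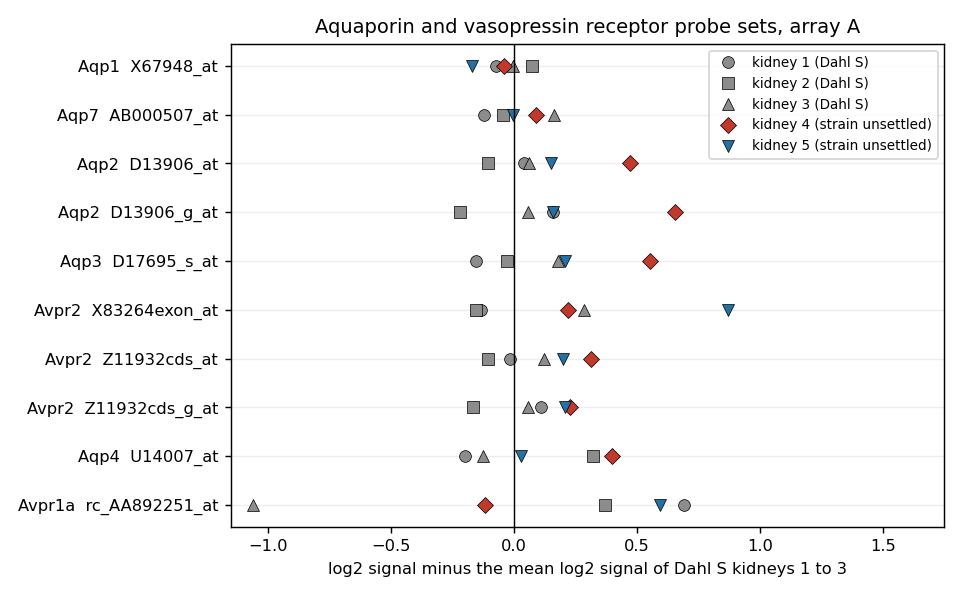
Each row is a member probe set of array A, and the horizontal axis gives the log2 signal of each kidney minus the mean of Dahl S kidneys 1 to 3 (grey). Kidney 4 (red diamond) stands at 0.47 and 0.66 for Aqp2 and 0.55 for Aqp3, while Aqp1 in kidney 5 stands at −0.17.

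Other genes of the principal cell were read beside these values. Of the 6 principal cell markers, 5 were tested on A (Scnn1a, Scnn1g, Hsd11b2, Fxyd4 and Kcne1), and for 0 of them did kidneys 4 and 5 both lie above the Dahl S range, where 8.82% of all tested probe sets did, so a count of 0 of 5 is near that share. Their median log2 deviation from Dahl S was −0.01 in kidney 4 and −0.09 in kidney 5. Hsd11b2, the enzyme that keeps glucocorticoids from the mineralocorticoid receptor, measured 7309, 7365 and 8709 in kidneys 1 to 3, then 8039 and 7835. The list's summed signal was 13726 to 15404 in Dahl S kidneys, 14740 in kidney 4 and 13937 in kidney 5. Scnn1b, a subunit of the epithelial sodium channel below the filter, is the exception, with 95.8, 78.6 and 80.7 in kidneys 1 to 3, then 289 and 167.

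Among genes of the inner medulla and of the osmotic response, Akr1b1, the aldose reductase that makes sorbitol, was above the Dahl S range in kidneys 4 and 5 on both its probe sets. On M60322_at it measured 4708, 4200 and 4951 in kidneys 1 to 3, then 5509 and 5533. The myo-inositol transporter Slc5a3 reached 1624 in kidney 4, against 505 to 796 in Dahl S kidneys and 733 in kidney 5. The urea transporter Slc14a2 (AF031642_at), a vasopressin target, measured 2815, 2917 and 2449, then 2695 and 2921, so the groups overlapped. The log2 deviation of kidneys 4 and 5 was 0.29 and −0.14 for Slc6a6 and 0.01 and −0.20 for Bcl2l2. It was −0.25 and 0.02 for the other Slc14a2 probe set (U09957_at). Of the 7 probe sets of the list, 2 were above, both of Akr1b1, where 8.82% of all tested probe sets were. With so few, nothing is read from this count. The list had a median log2 deviation of 0.26 in kidney 4 and 0.10 in kidney 5. Its summed signal was 11099 to 11466 in Dahl S kidneys, 13622.5 in kidney 4 and 12415 in kidney 5.

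Markers of other cells were measured in the same kidneys of array A. The median log2 deviation of kidneys 4 and 5 was 0.30 and −0.19 for thick ascending limb probe sets, 0.07 and −0.21 for those of the proximal tubule, −0.50 and −0.05 for those of leukocytes, and 0.05 and 0.30 for those of red blood cells. It was −0.05 and −0.36 for the distal convoluted tubule, −0.11 and 0.27 for endothelium, 0.03 and 0.11 for intercalated cells, and 0.14 and −0.22 for the 1 tested podocyte probe set. The distal convoluted tubule gene Slc12a3 gave 1.57 and −0.45 on rc_AA965132_s_at, but −0.05 and −0.36 on U10097_at, so its probe sets disagreed in kidney 4. The 1 tested adrenal probe set gave 0.04 and 0.37. Over all tested probe sets the median was −0.05 and 0.02. The adipocyte list reached 1.23 and 0.11, from 3 probe sets of Lpl and 1 of Lep, which went the other way (D49653_s_at, −0.22 and −0.31). Below the filter, the fat cell gene Fabp4 gave 199 to 271 in Dahl S kidneys, then 193 and 114, and Plin1 was below the floor in every kidney. Kidneys 4 and 5 were both above the Dahl S range on 1 of 7 tested thick ascending limb probe sets, 1 of 12 of the proximal tubule and 2 of 4 of adipocytes, and on 0 of 4 of leukocytes (all Cd74) and 0 of 4 of red blood cells. Both were below it on 1 proximal tubule probe set. Over all tested probe sets the shares were 8.82% above and 10.1% below, and with so few probe sets in each list nothing is read from these counts.

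Summed over each list, the thick ascending limb signal was 60504 to 77792 in Dahl S kidneys, 73540 in kidney 4 and 61894 in kidney 5. The proximal tubule sum was 155286 to 180584, then 164192 and 128767, so that kidney 5 was below the Dahl S range. This linear sum is weighted to the brightest Slc34a1 probe sets. The brightest (rc_AI105198_i_at) gave 48780 to 62655 in Dahl S kidneys, then 51193 and 33515. In kidney 5, Cubn (5512) and Slc34a1 on AB013453_at (3862) were above their Dahl S ranges of 3170 to 3970 and 2837 to 3046. The sum is therefore no measure of the segment as a whole. The leukocyte sum was 15720 in kidney 4, under the Dahl S range of 19759.5 to 25823, and 20842 in kidney 5. Nearly all of this sum came from Cd74. Ptprc, the other leukocyte gene on A, was below the filter. On M25823_s_at it gave 81.9 to 102 in Dahl S kidneys, then 234 and 110. Its other probe sets were each below the floor in 4 kidneys. Red blood cell probe sets summed to 19627 to 26246, then 25144 and 28744, and adipocyte probe sets to 7254 to 9724, then 11995 and 7869. The part of these markers in the Aqp2, Aqp3 and Avpr2 values was not tested.

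**Figure D3:**
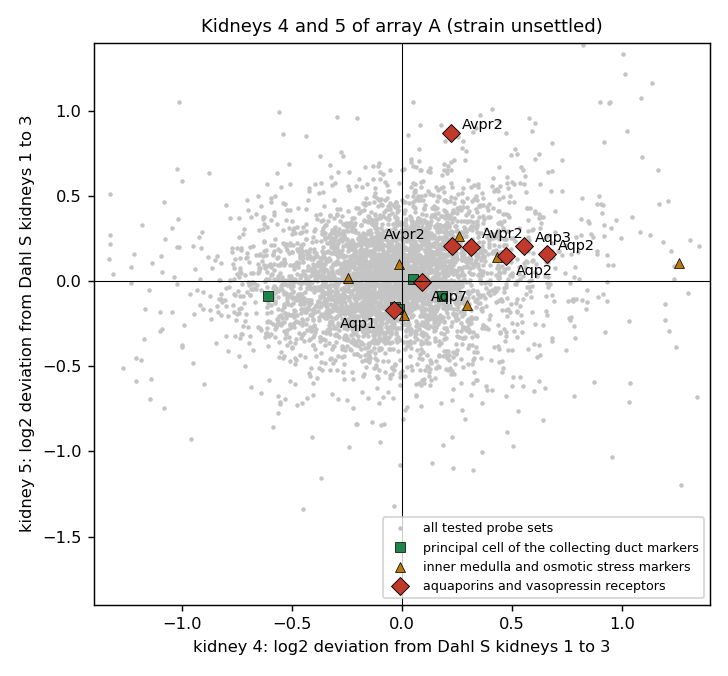
Log2 deviation from the mean of Dahl S kidneys 1 to 3 on array A, for kidney 4 (horizontal) and kidney 5 (vertical), with tested probe sets in grey, member probe sets as red diamonds, principal cell markers as green squares and inner medulla markers as orange triangles. The axes leave out 50 tested probe sets. Aqp2, Aqp3 and Avpr2 lie in the upper right quadrant, and Aqp1 and Aqp7 near 0.

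Aqp4, the other basolateral channel of the principal cell, was measured on A and on C. On A its signal (U14007_at) was below the filter, at 142, 203 and 149 in kidneys 1 to 3, then 214.5 and 166. On C (rc_AI235942_at) it measured 810, 1165 and 1228 in Dahl S kidneys and 2051 and 890 in congenic kidneys. Kidney 4 was the highest on both designs and Dahl S kidney 1 the lowest, while kidney 5 lay inside the Dahl S range on both.

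The strains were compared on C across the whole table. Aqp4 averaged 1068 ± 225 in Dahl S (SD, n = 3), against a congenic mean of 1470 ± 821 (SD, n = 2). The log2 difference, congenic minus Dahl S, was 0.36 (SE 0.35, 95% interval −0.45 to 1.18, limma adjusted p = 0.885), which does not pass the threshold of 0.05 and leaves room for a change in either direction. Congenic kidney 4 decided its sign: without that kidney the difference was −0.24 (limma adjusted p = 0.909), and without kidney 5 it was 0.97 (adjusted p = 0.342, unadjusted p = 0.0114). With 1 congenic kidney left, that kidney is assumed to vary like the Dahl S kidneys. On C, 0 of 4420 tested probe sets passed (0%), with 274 at an unadjusted p under 0.05 (6.2%). Congenic kidney 4 was also the highest on C for Podxl, a podocyte gene, at 1156.5, 1327 and 777 in Dahl S and 1887 and 1246 in congenic kidneys, and for Slc22a8, a proximal tubule transporter, at 8621, 10125 and 7448, then 10592 and 7381. The other tested markers on C were mixed. The endothelial gene Emcn and the leukocyte gene Cd74 (rc_AI105172_i_at) were also highest in kidney 4. Calb1, of the distal convoluted tubule, and the leukocyte gene Cd68 were highest in kidney 5. The adipocyte gene Adipoq (rc_AI105446_at) and Cd74 (rc_AI105172_r_at) were highest in kidney 3, and the leukocyte gene Laptm5 in kidney 1. No principal cell marker of the list was on C, and the part of other cells in the Aqp4 values was not tested.

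**Figure D4:**
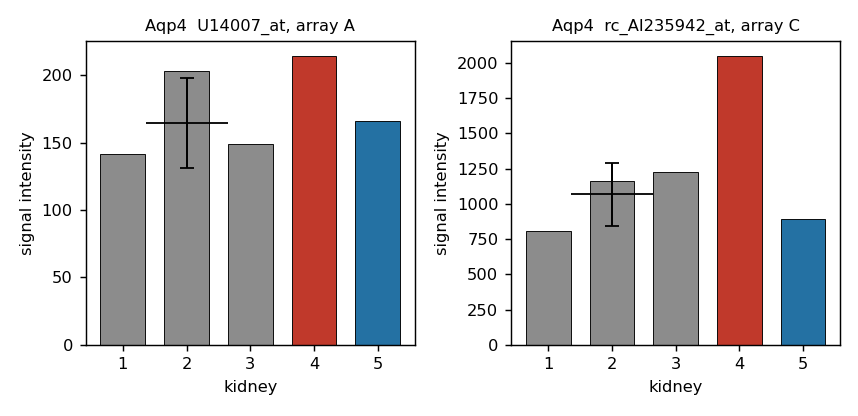
Signal intensity (linear axes from 0) of Aqp4 on array A, below the filter, and on array C, in kidneys 1 to 5, with the Dahl S mean and SD (n = 3) in black. Kidney 4 (red) is the highest on both, at 214.5 and 2051. It is congenic on C and of unsettled strain on A, as is kidney 5 (blue).

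Avpr1a, the vascular and mesangial receptor, was close to the floor of array A. Its signal (rc_AA892251_at) was 286, 229 and 69.7 in Dahl S kidneys, with the last below the floor, and 163.5 and 267.5 in kidneys 4 and 5. With kidney 3 set to the floor the Dahl S kidneys spanned at least 3.37-fold, the widest span of the member probe sets, and both other kidneys fell within it. No difference between kidneys can be read from this probe set at this signal.

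The probe sets of a gene agreed to different degrees. The 2 of Aqp2 deviated from the Dahl S mean in the same direction in 5 of 5 kidneys, were highest in kidney 4 and lowest in kidney 2, and differed by at most 0.18 on the log2 scale. For Avpr2, Z11932cds_at and Z11932cds_g_at deviated the same way in 4 of 5 kidneys, with a largest gap of 0.13. X83264exon_at departed from them by 0.67 in kidney 5 on both comparisons. All Avpr2 probe sets were lowest in kidney 2. For Aqp4 the probe sets of A and C deviated the same way in 3 of 5 kidneys, with a largest gap of 0.57 in kidney 4. With 5 kidneys no correlation is given.

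Other genes of the aquaporin and neurohypophysial families were mostly dim. Of 12 such genes, 9 were on A with 14 probe sets, of which 4 were tested. For 0 of the 4 were kidneys 4 and 5 both above or both below the Dahl S range. Over all tested probe sets the shares were 8.82% above and 10.1% below, so a count of 0 of 4 is near them. Aqp6, of intercalated cells, was below the filter at 251 to 378 in Dahl S kidneys, then 288 and 294, and the colon and pancreas channel Aqp8 was below the floor in every kidney. Avp, the vasopressin gene itself, gave 91.7, 169 and 212 in kidneys 1 to 3, then 179 and 330 (M64785_g_at), below the filter. Its probe sets disagreed, since M25646_at passed the filter at 358.5, 417 and 403 in kidneys 1 to 3, then 317 and 450, and M64785_at was below the floor in every kidney. On C, Aqp11, an intracellular channel of the proximal tubule, measured 2160, 1803 and 1462 in Dahl S and 1047 and 2000.5 in congenic kidneys. Its log2 difference was −0.30 (SE 0.29, limma adjusted p = 0.885), and 0.16 without congenic kidney 4.

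The genes that carry the vasopressin signal to Aqp2 and bring its vesicles to the membrane were counted next, from a list of 44. On A, 36 of their 52 probe sets were tested, with 5 above the Dahl S range in kidneys 4 and 5 and 3 below, where 8.82% and 10.1% of all tested probe sets were. Adcy6, a cyclase of the collecting duct, was among those above, at 646, 941 and 745 in kidneys 1 to 3, then 1010 and 1052. So was the kinase subunit Prkaca (X57986mRNA_s_at), at 1624, 1535 and 1246, then 1729 and 1641, though its other probe set, at 668 to 777 in Dahl S kidneys, gave 691 and 714 in kidneys 4 and 5. Arrb2, an arrestin that desensitizes receptors, was above on 1 of its 2 probe sets (M91590_g_at), with 464 and 531 against at most 459 in Dahl S. Another kinase subunit, Prkacb, was below on rc_AA891881_at, at 1321, 1404 and 1402 in kidneys 1 to 3, then 1228 and 1233. Its other probe set, at 275 to 412 in Dahl S kidneys, gave 357 and 364.

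The vesicle fusion genes went both ways. Vamp2, a vesicle SNARE, gave 1662, 2211 and 2037, then 2356 and 2344, on M24105_at, but 937, 1036 and 960.5, then 793 and 869, on rc_AI101103_s_at, so its probe sets disagreed. Snap23, its partner at the plasma membrane, was below on rc_AA892759_at, at 876, 926 and 1006, then 416 and 834. On its other probe set it gave 637 to 859.5 in Dahl S kidneys, then 527 and 843.5. Dim probe sets of the list below the filter included Stx3, Gsk3b and Hoxb7. Stx3 was at 127, 114 and 174, then 111 and 108, and Gsk3b (X73653_at) at 278.5, 372 and 391, then 277 and 263, while Hoxb7 spanned 185 to 393 within Dahl S and gave 505 and 174. The Gsk3b probe set above the filter (X53428cds_s_at) disagreed, at 377.5, 347.5 and 262 in kidneys 1 to 3, then 300 and 455.

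In the strain comparison 0 of the 14 tested probe sets of this list on B and 0 of the 11 on C passed the adjusted threshold in limma, where 0.0912% and 0% of all tested probe sets did. At an unadjusted p under 0.05 there were 1 of 14 on B, against 3.49% of all tested probe sets, and 2 of 11 on C, against 6.2%. Dahl S and congenic values did not overlap for 17.2% of all tested probe sets on B (7.73% congenic higher, 9.44% lower) and 22.4% on C (10.2% higher, 12.2% lower). In the list they did not overlap for 1 higher and 1 lower of 14 on B, and for 1 higher and 1 lower of 11 on C. The median log2 difference of the list was −0.04 on B and 0.05 on C, and −0.01 over all tested probe sets of each. Stx4, a SNARE of the apical and basolateral membrane, was the 1 on B, at 1553, 1129 and 2093 in Dahl S and 878 and 1027 in congenic kidneys. Its log2 difference was −0.70 (SE 0.26, limma adjusted p = 0.998). Its other probe set on B, below the filter, gave 448.5, 327 and 266, then 179 and 170, also with no overlap. On A the tested Stx4 probe set L20821_at was nearly flat. It gave 340, 344 and 343 in Dahl S kidneys, then 330 and 353 in kidneys 4 and 5 of unsettled strain. On C, Stx3, another apical SNARE, measured 658, 575 and 564 in Dahl S and 439 and 430 in congenic kidneys. Its log2 difference was −0.46 (SE 0.14, limma adjusted p = 0.775). On B its probe set rc_AA996902_at, below the filter, gave 36.1, 93.3 and 143 in Dahl S, then 180 and 100 in congenic kidneys. Of these kidneys 3 were below the floor. Arrb2 (rc_AI178546_at) measured 973, 909 and 935 in Dahl S and 1368 and 1134 in congenic kidneys, with log2 differences of 0.41 here and of 0.25 and 0.05 on its other tested probe sets of C (limma adjusted p = 0.775, 0.870 and 0.965). On B its tested probe set rc_AI013765_s_at went the other way, at −0.13 (limma adjusted p = 0.998), and rc_AA964003_s_at, below the filter, gave 448 to 547 in Dahl S and 437 and 462.5 in congenic kidneys.

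The genes whose pattern over the kidneys was closest to that of the most variable member above the filter were found by the root mean square difference of their log2 deviations over 5 kidneys. On A that member was the Avpr2 probe set X83264exon_at, and the closest of 3676 named probe sets were Alas1 (0.0613), Casq1 (0.0653) and Cubn (0.113), all highest in kidney 5. On C it was Aqp4, and the closest of 3505 were Minar2 (0.103), Tox (0.161) and Gstt3 (0.190), all highest in congenic kidney 4. These genes were picked for their likeness, so the shared highest kidney follows from the choice and supports nothing. X83264exon_at had itself passed the filter through kidneys 4 and 5.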

How the data were processed

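The deposited values are signal intensities per probe set, made by the authors on a linear scale. No source used here names the software or says whether a background was subtracted. The mean without the top and bottom 2% lay between 1000.57 and 1001.35 on every array, so they had been scaled before deposit, and no further scaling was applied. Gene symbols came from the platform annotation and were updated by gene identifier to RefSeq (GRCr8).

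The designs were analysed separately. Lower values were set to the 25th percentile of the design before log2 was taken. Probe sets with a mean at or above the median of all values were kept, without the 59 control probe sets of each design, which left 4411 on A, 4385 on B and 4420 on C. Those of A are also called tested, but no test was run on A. Kidneys 1 to 3 were compared with congenic kidneys 4 and 5 on B and C by limma (version 3.58.1, R 4.3.3; lmFit, then eBayes), with Benjamini-Hochberg adjustment over all tested probe sets. The fit was tested on simulated data. The number of arrays limits the precision.

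All member probe sets were named. From the lists of other aquaporins and of water handling, those with an unadjusted p under 0.05 on B or C, or otherwise up to 3 per design, were named. On A the rule took the 10 farthest from Dahl S among the qualifying probe sets. These had Dahl S values that spanned over 2-fold, or kidneys 4 and 5 both above or both below the Dahl S range. Aqp6, Aqp8, Scnn1b, Plin1, Fabp4, Prkacb, the marker genes named with values and the second probe sets were chosen after their values were seen. The members and lists were chosen with earlier results of these data known. Alternatives were quantile normalisation, median scaling, other floors and filters, an intensity trend with robust variance, array weights and leaving out each kidney.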

Additional observations from a re-analysis of the deposited data

Results flagged for a closer look

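Kidneys 4 and 5 of array A entered no comparison between strains, and 5 of the 6 probe sets of Aqp2, Aqp3 and Avpr2 gave signals there above every Dahl S kidney, as did 8.82% of all tested probe sets. The sixth, Avpr2 X83264exon_at, overlapped. The lower of kidneys 4 and 5 exceeded the highest of kidneys 1 to 3 by 0.0896 (Aqp2 D13906_at), 0.00107 (Aqp2 D13906_g_at), 0.0283 (Aqp3 D17695_s_at), 0.0783 (Avpr2 Z11932cds_at) and 0.0960 (Avpr2 Z11932cds_g_at) on the log2 scale. The kidneys whose strain is unsettled cannot be assigned to a group from these values.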

How the results depend on the processing

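The number of member probe sets of array A with kidneys 4 and 5 above Dahl S was 5 of 8, where 8.82% of all tested probe sets were. It was 5, 5 and 7 without Dahl S kidney 1, 2 and 3, against 12.8%, 14.4% and 16.3%, with Aqp7 and X83264exon_at added in the last. It was 6 with quantile normalisation (9.22%), where X83264exon_at was added. It was 5 with median scaling (13.1%, 4 shared) and 5 of 10 with no filter (7.39%). X83264exon_at passed the main filter through kidneys 4 and 5, so it adds no support to any of these counts. These settings were chosen after seeing the data. With a floor at the 40th percentile the mean Dahl S log2 signal of Aqp4 on A rose from 7.35 to 7.65. For Aqp4 on C the log2 difference was −0.24 to 0.97 over the fits without 1 kidney, negative without congenic kidney 4, and 0.33 to 0.47 in the other alternatives. It was not tested with the filter at the 75th percentile. For Aqp11 on C it was −0.77 to 0.16 over the fits without 1 kidney, positive without congenic kidney 4. On array B the number of probe sets past the threshold (4) became 1 with quantile normalisation, median scaling, either other floor, the 75th percentile filter or array weights, and 0 to 31 without 1 kidney. On array C it went from 0 to 2 with no filter, to 1 with an intensity trend and robust variance, and 0 to 35 without 1 kidney. The largest counts came without congenic kidney 5. Stx4, Stx3 and Arrb2 kept their direction and did not pass the threshold in the alternatives that tested them. The cause was not tested. No paired analysis was possible because the strains share no kidney number within a design. Signals near the floor limit what Aqp4 on A and Avpr1a can show.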
